A study of Mus musculus with 12 samples.

Results

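The genes of the major histocompatibility complex (MHC) and of antigen processing were followed in mouse liver under the loss of PPARα from hepatocytes and under a diet that brings on steatohepatitis. The group holds 46 of the 55357 genes in the count table. Members are the protein-coding genes whose symbol starts with H2- and a capital letter, without H2-Ke6, which is not an MHC molecule, together with B2m, Tap1, Tap2, Tapbp, Tapbpl, Cd74, Ciita, Nlrc5, Psmb8, Psmb9, Psmb10, Erap1 and Ifi30. Of these, 34 belong to class I (24 heavy chains and 10 genes of the machinery) and 12 to class II (9 chains and 3 genes of the machinery). The rule itself uses no measured value. The livers came from male C57BL/6J mice, all homozygous for the floxed Ppara allele. The KO mice (PPARa fl/fl AlbuminCre Tg/+) carried Cre under the albumin promoter, which is active in hepatocytes, and the WT mice (PPARa fl/fl AlbuminCre +/+) lacked it. Liver cells without the albumin promoter's activity keep Ppara in both. From 7 weeks of age they received chow or CDAHFD, a high-fat diet of defined L-amino acids without choline, for 6 weeks, so that they were 13 weeks old at the end. This gave 4 libraries of WT chow, 2 of KO chow, 3 of WT CDAHFD and 3 of KO CDAHFD. The study's methods give equal numbers of mice per group, which these label counts do not match, and the groups were kept as labelled.

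As background, class I molecules sit on nearly every nucleated cell and show peptides from the inside of the cell to CD8 T cells. The proteasome cuts the peptides, the TAP transporter carries them into the endoplasmic reticulum, and a heavy chain bound to β2-microglobulin takes them up with the help of tapasin. Class II molecules are made mainly by dendritic cells, macrophages and B cells, and show peptides from engulfed material to CD4 T cells. Their chains travel with the invariant chain Cd74, which is cut away by lysosomal proteases and replaced by peptide with the help of H2-DM. The transcription factor Ciita switches class II genes on, and its relative Nlrc5 does so for class I genes. In liver, Kupffer cells, dendritic cells and endothelial cells can present antigen, and the hepatocyte is a cell with class I.

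Total counts ran from 29906785 to 43551003 per library. Levels are given as CPM, the count scaled to library sizes corrected by TMM, with the SD between libraries as the error, and log2 fold changes with their standard error. A gene is called at an adjusted p (padj) under 0.05 in edgeR's quasi-likelihood test. The labels number the libraries without saying that each is a separate mouse, so p-values measure the spread between these libraries. Ppara, the targeted gene, stood at 120.1, 96.2, 238 and 226 CPM with WT chow, 14.4 and 38.7 for KO chow, 59.5, 75.5 and 73.5 for WT CDAHFD and 36.3, 20.7 and 51.9 for KO CDAHFD. Its log2 fold change against WT chow was -2.68 ± 0.504 (padj = 0.00111) for KO chow, -1.29 ± 0.399 (padj = 0.0163) for WT CDAHFD and -2.23 ± 0.416 (padj = 0.000641) for KO CDAHFD. Between KO CDAHFD and WT CDAHFD it was -0.94 ± 0.417 (padj = 0.547) and not called, though the groups did not overlap, and with a score of clock genes as a covariate it was called, at -1.36 (padj = 0.0189). That score, the mean log2 CPM of genes such as Arntl minus that of genes such as Dbp, was 3.80, 3.31, -2.44 and -2.35 for WT chow, 3.27 and -0.37 for KO chow, 1.34, 2.15 and 2.06 for WT CDAHFD and 1.69, 1.63 and -3.16 for KO CDAHFD, so libraries of a group stood apart in it, WT chow replicates 1 and 2 from 3 and 4 among them. The call of Ppara in WT CDAHFD against WT chow is lost with library size scaling, at -0.71 (padj = 0.14), without WT chow replicate 3, at -1.06 (padj = 0.0508), or without WT CDAHFD replicate 1, at -1.19 (padj = 0.0644). Hepatocyte markers were the most abundant of the cell type lists in every library, and the 8 of them summed to 92443 to 113591 CPM for WT chow and 48971 to 62893 for KO CDAHFD. Of all 17358 genes tested, 39.0% were called between KO chow and WT chow, 51.1% between WT CDAHFD and WT chow and 52.4% between KO CDAHFD and WT chow. Fewer, 6.19%, were called between KO CDAHFD and KO chow and 0.357% between KO CDAHFD and WT CDAHFD.

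On GRCm38, 38 of the 46 members lie on chromosome 17, between positions 33915899 and 37483552, and the 9 class II chains form 1 block of it from 34092340 to 34341412. The classical class I genes flank that block, H2-K1 at chr17:33996017-34000347 and H2-D1 at chr17:35262730-35267499, and the H2-Q, H2-T and H2-M genes follow. B2m is at chr2:122147686-122153083, Ciita at chr16:10480059-10528418 and Nlrc5 at chr8:94434356-94527272. A filter on low counts left 35 members for the test, all 12 of class II and 23 of class I. The 11 others are heavy chains with next to no reads. H2-M10.1, H2-M10.2, H2-M10.3, H2-M10.4, H2-M10.5, H2-M11 and H2-M1 had 0 counts in all 12 libraries, which allows up to 3 counts in a library (counting error only). H2-T3 and H2-M9 had 1 count each, H2-M10.6 had 6 and H2-M5 had 30 over the 12 libraries.

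Many class I and class II genes share a promoter module whose X1 box is read by the RFX complex and whose Y box is read by NF-Y. The letters of both were searched in the 250 bases before the start of each gene in RefSeq's windows on GRCm38.p6, where 38 members (29 of class I, 9 of class II) had a window. The X1 box was spelled as GNNAC with NGATG directly after it and the Y box CCAAT, both were searched on both strands, and N is any base. CCAAT was found in 33.8% of all 32851 windows, and in 23 of the 29 class I genes and 8 of the 9 class II genes. The X1 letters were found in 2.5% of all windows, and in 12 class I genes and 4 class II genes. The core of an interferon-stimulated response element, GAAA and again GAAA with 2 bases of any kind between, was in 2.98% of all windows, in 3 class I genes and in 0 class II genes. With the X1 box followed by ATTGG, the Y box on the other strand, at 32 to 33 bases from start to start, a spacing read off the members themselves, 10 of the 32851 windows (0.0304%) matched. Of those 10, 8 are members: H2-D1, H2-M3, H2-Q4, H2-Q6 and H2-Q7 of class I, and H2-DMb1, H2-Eb1 and H2-Eb2 of class II. The pair was searched in this orientation only, and because its spacing came from members, their matches are a description and no test. The 2 others are Scaper on chromosome 9 and BC051142, whose window starts at 34398570 on chromosome 17, outside the class II block. Members without a window include H2-Ab1, Ciita, Nlrc5 and H2-Q1.

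The module is shown for 3 class II and 3 class I genes that hold both boxes, so that their shared spacing can be seen, for H2-M2, which had among the highest fold changes, and for H2-Q10, which fell. The 3 class I genes shown were called higher in at least 1 comparison with WT chow. H2-Q6 and H2-Q7 hold the same pair, were not called in any of these comparisons, and are not shown. Bases are given 5′ to 3′ on the gene's strand, with X1 boxes and Y boxes on either strand in capitals and all other bases in lower case.
H2-Eb1 (chr17:34305766-34305846, plus strand): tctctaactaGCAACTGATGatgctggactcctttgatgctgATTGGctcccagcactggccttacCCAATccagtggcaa
H2-Eb2 (chr17:34325533-34325589, plus strand): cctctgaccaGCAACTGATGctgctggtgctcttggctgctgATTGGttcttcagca
H2-DMb1 (chr17:34153087-34153144, plus strand): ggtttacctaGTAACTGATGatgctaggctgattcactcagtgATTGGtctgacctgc
H2-D1 (chr17:35262975-35263055, plus strand): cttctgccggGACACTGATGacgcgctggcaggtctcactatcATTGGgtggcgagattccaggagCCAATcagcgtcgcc
H2-Q4 (chr17:35379495-35379576, plus strand): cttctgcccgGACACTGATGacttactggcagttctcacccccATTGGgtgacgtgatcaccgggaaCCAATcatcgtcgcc
H2-M3 (chr17:37270095-37270227, plus strand): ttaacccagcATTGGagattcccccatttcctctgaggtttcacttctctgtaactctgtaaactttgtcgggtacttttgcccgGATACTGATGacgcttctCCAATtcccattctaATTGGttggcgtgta
H2-M2 (chr17:37483624-37483666, minus strand): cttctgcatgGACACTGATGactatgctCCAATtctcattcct
H2-Q10 (chr17:35469969-35470088, plus strand): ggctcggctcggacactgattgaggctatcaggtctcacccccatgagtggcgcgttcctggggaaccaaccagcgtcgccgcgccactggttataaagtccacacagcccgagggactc
The H2-Q10 stretch, the 120 bases before its start, holds neither the X1 letters nor CCAAT on either strand, and stands in lower case throughout. A match or its absence describes letters in a window and was not tested for binding.

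Class I and class II differed in level and in response. In WT chow, transcript levels per kilobase of exon were highest for B2m, at 2254 ± 137 CPM per kilobase, followed by H2-Q10 at 674 ± 21.5, H2-K1 at 517 ± 58.1 and H2-D1 at 252 ± 41.5 (mean ± SD, n = 4). Cd74, at 54.9 ± 21.2 CPM per kilobase, was the class II member with the most transcript, and H2-Eb1, H2-Ab1 and H2-Aa stood at 13.7 ± 4.95, 12.2 ± 5.51 and 7.81 ± 3.20. The summed CPM of the 9 class II chains came to 1.15 to 2.56% of that of the tested class I heavy chains in WT chow, 7.61 to 8.55% for KO chow, 5.10 to 7.80% for WT CDAHFD and 7.96 to 9.98% for KO CDAHFD. This share is formed within a library and does not depend on the scaling, and every WT chow library lay below the 8 others.

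The mean log2 CPM over the 12 class II genes was 1.98, 2.28, 2.31 and 1.504 in the WT chow libraries, 4.005 and 3.75 for KO chow, 3.85, 3.59 and 3.96 for WT CDAHFD and 3.88, 3.88 and 3.91 for KO CDAHFD. That over the 23 class I genes was 5.44, 5.17, 5.27 and 4.94 for WT chow, 6.06 and 5.54 for KO chow, 6.04, 5.98 and 6.03 for WT CDAHFD and 5.87, 5.88 and 5.75 for KO CDAHFD. Both scores were lowest in WT chow, with a narrower gap for class I, where KO chow replicate 2 was close to WT chow replicate 1. The class II score minus the class I score was higher than in WT chow by 1.27 for KO chow, 0.98 for WT CDAHFD and 1.24 for KO CDAHFD, against a pooled SD between libraries of 0.217. These scores describe the libraries and were given no test.

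**Figure D1:**
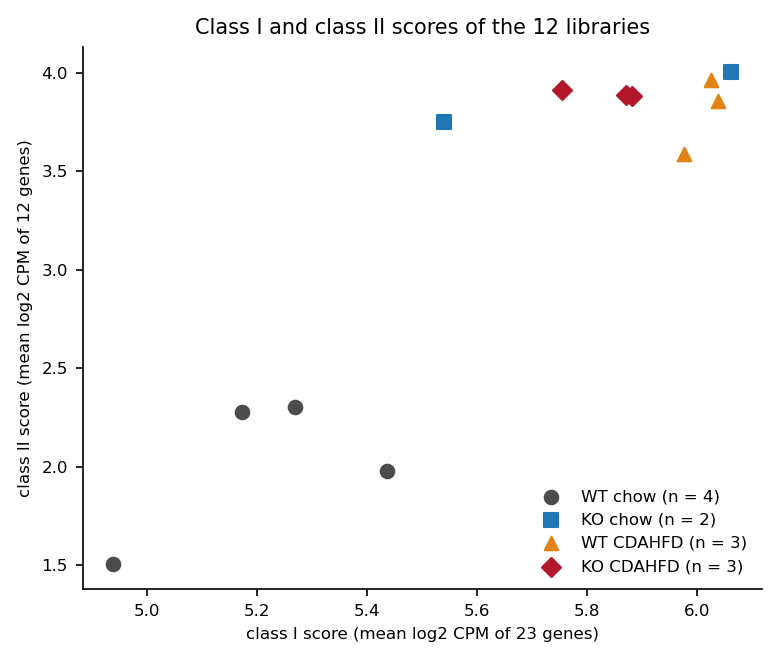
Mean log2 CPM of the 23 tested class I genes (x axis) against that of the 12 class II genes (y axis), 1 point per library, with colour and symbol for the 4 groups. The 4 WT chow libraries lie at class II scores of 1.504 to 2.31, below the 8 other libraries at 3.59 to 4.005.

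Counted by gene, class II rose nearly as a whole and class I in part. Against WT chow, 12 of 12 class II genes were called higher in KO chow (22.0% of all genes tested were called higher), 11 of 12 for WT CDAHFD (26.1%) and 12 of 12 for KO CDAHFD (26.9%), and 0 were called lower in edgeR, where DESeq2 gave 12, 12 and 12 higher. The median log2 fold change of the 12 was 1.98, 1.85 and 1.91, where the median of all genes tested was 0.0022, -0.048 and -0.040. Of the 23 class I genes, 7 were called higher and 2 lower in KO chow (17.0% of all genes were called lower), 9 higher and 2 lower in WT CDAHFD (25.0%), and 11 higher and 2 lower in KO CDAHFD (25.4%). The class I shares called higher are thus 7, 9 and 11 of 23 beside 22.0%, 26.1% and 26.9% of all genes. Their median log2 fold changes were 0.40, 0.40 and 0.36. By range, 12, 11 and 12 of the 12 class II genes had every library above every WT chow library (27.2%, 28.0% and 26.7% of all genes), as had 6, 11 and 9 of the 23 class I genes, and 2, 2 and 2 class I genes had every library below (23.0%, 27.4% and 24.8%). The 3 comparisons share the WT chow libraries and are not independent of each other.

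**Figure D2:**
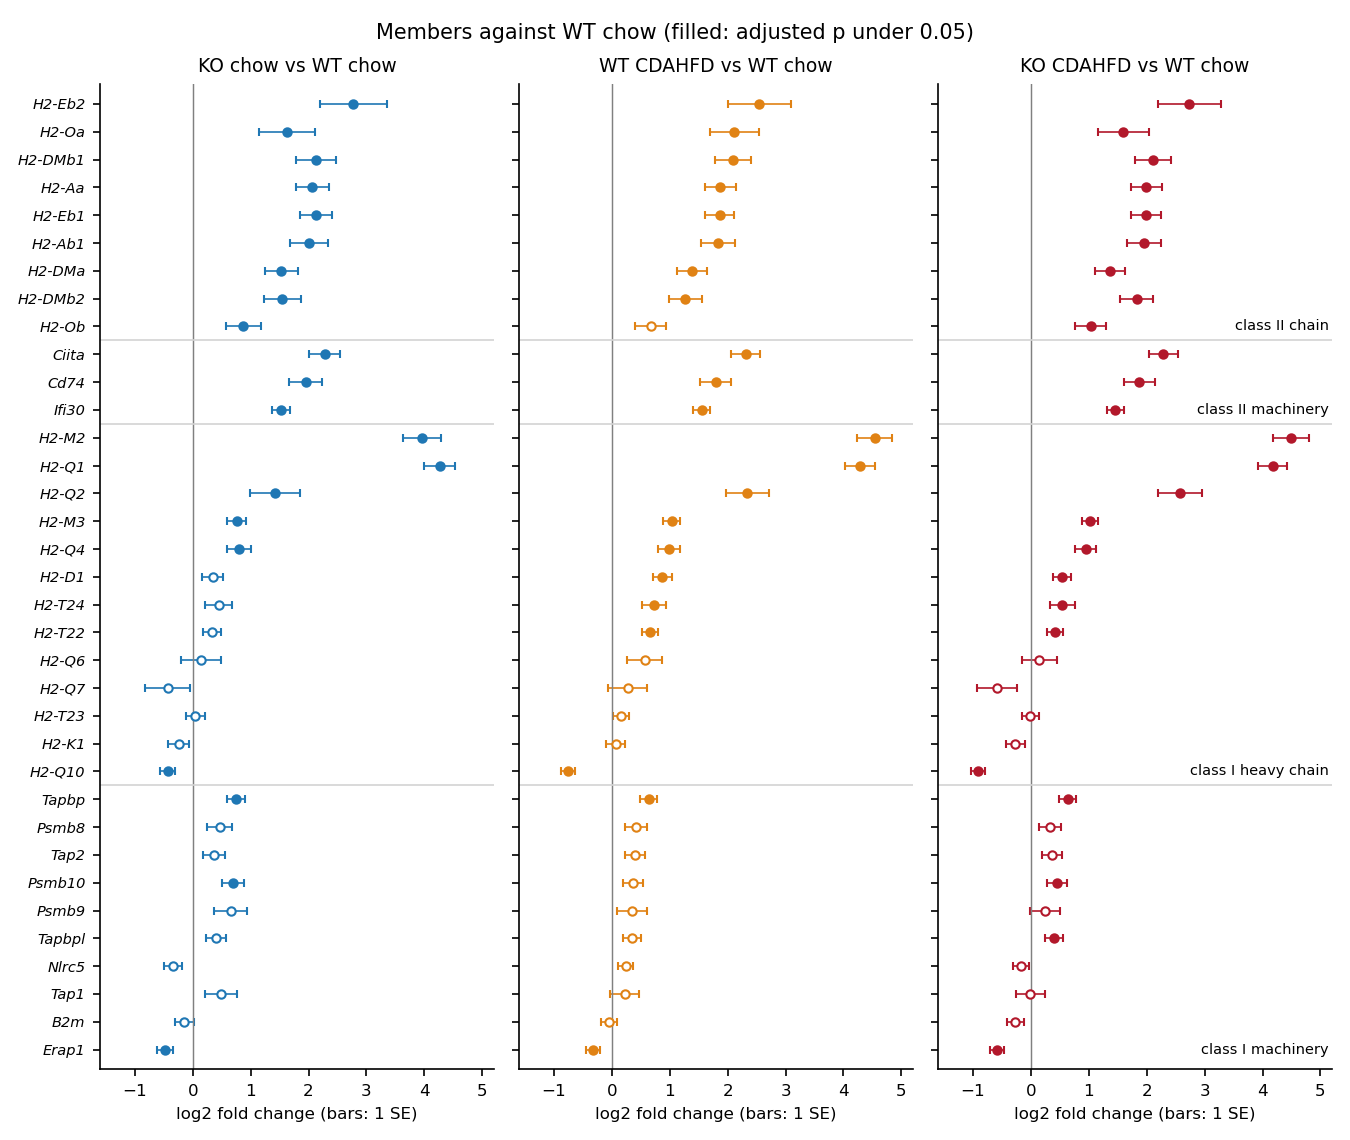
Log2 fold change against WT chow (x axis, bars 1 SE) of the 35 tested members (rows, by role) in the KO chow, WT CDAHFD and KO CDAHFD groups, and filled points where the adjusted p is under 0.05. Class II genes lie between 0.67 and 2.78, while class I genes spread from -0.91 (H2-Q10) to 4.54 (H2-M2).

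The α and β chains of the classical class II molecules I-A and I-E moved together. H2-Aa, the I-A α chain, stood at 22.5, 33.4, 45.0 and 17.8 CPM for WT chow, 143 and 106 for KO chow, 114, 80.4 and 132 for WT CDAHFD and 110.4, 121 and 122 for KO CDAHFD. No library of the 3 latter groups fell into the WT chow range. Its log2 fold change against WT chow was 2.07 ± 0.290 (padj = 0.00012), 1.87 ± 0.267 (padj = 8.16e-05) and 1.99 ± 0.267 (padj = 4.68e-05) in that order, which is 4.19-, 3.66- and 3.97-fold. H2-Ab1, the I-A β chain, was at 22.5, 36.5, 49.0 and 17.7 CPM for WT chow, 151 and 102 for KO chow, 122, 78.5 and 136 for WT CDAHFD and 127, 125 and 114 for KO CDAHFD. It rose by 2.01 ± 0.324 (padj = 0.000352), 1.83 ± 0.298 (padj = 0.000233) and 1.95 ± 0.298 (padj = 0.000134) on the log2 scale, again without overlap with WT chow. H2-Eb1, the I-E β chain, gave 20.1, 29.9, 38.5 and 17.6 CPM for WT chow, 142 and 90.3 for KO chow, 100.1, 72.9 and 117 for WT CDAHFD and 104, 104 and 109 for KO CDAHFD. Its changes were 2.13 ± 0.275 (padj = 6.26e-05), 1.86 ± 0.253 (padj = 5.49e-05) and 1.99 ± 0.253 (padj = 2.98e-05). The I-E α chain is not among the protein-coding members, since C57BL/6 mice carry a broken copy of it. Within each library the chains kept their proportion: the CPM of H2-Aa per CPM of H2-Ab1 lay between 0.870 and 1.07 over the 12 libraries, and that of H2-Eb1 per H2-Ab1 between 0.787 and 0.992. WT chow replicate 4 was lowest of its group in all 3 chains and replicate 3 highest.

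H2-Eb2, a second I-E β-like gene with few reads, had the largest class II change. It stood at 0.116, 0.283, 0 and 0.229 CPM for WT chow, 0.734 and 1.43 for KO chow, 0.861, 1.09 and 0.830 for WT CDAHFD and 0.849, 1.12 and 1.19 for KO CDAHFD, and its log2 fold changes were 2.78 ± 0.583 (padj = 0.00236), 2.55 ± 0.543 (padj = 0.00176) and 2.73 ± 0.543 (padj = 0.00101). It rests on 366 counts over the 12 libraries. H2-DMa and H2-DMb1 encode the chains of H2-DM, which loads peptide onto class II. H2-DMa was at 4.89, 5.19, 6.04 and 2.80 CPM for WT chow, 17.9 and 9.63 for KO chow, 13.9, 9.61 and 13.7 for WT CDAHFD and 12.8, 13.4 and 10.7 for KO CDAHFD, with changes of 1.53 ± 0.282 (padj = 0.000943), 1.38 ± 0.257 (padj = 0.000676) and 1.37 ± 0.257 (padj = 0.000663). The exons of H2-DMa overlap those of the more abundant Brd2 by 360 bases on the opposite strand, which these non-directional libraries cannot separate. H2-DMb1 stood at 3.44 ± 1.47 CPM for WT chow, 15.2 ± 4.71 for KO chow, 14.8 ± 3.84 for WT CDAHFD and 15.0 ± 1.65 for KO CDAHFD (mean ± SD), and rose by 2.13 ± 0.339 (padj = 0.000323), 2.09 ± 0.313 (padj = 0.000124) and 2.10 ± 0.313 (padj = 0.00011). Its neighbour H2-DMb2, a second β chain, at 0.541 ± 0.224 CPM for WT chow, 1.60 ± 0.0700 for KO chow, 1.32 ± 0.0978 for WT CDAHFD and 1.94 ± 0.255 for KO CDAHFD, rose by 1.55 ± 0.319 (padj = 0.00208), 1.27 ± 0.291 (padj = 0.00282) and 1.82 ± 0.289 (padj = 0.000179). These β chain genes share 22.65% of the 50-base words of H2-DMb1, so reads can pass between them.

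H2-O is the partner that holds H2-DM back, and its β chain changed least. H2-Ob, that chain, was at 0.932, 1.73, 1.47 and 1.01 CPM for WT chow, 1.77 and 2.98 for KO chow, 1.62, 2.14 and 2.45 for WT CDAHFD and 2.67, 2.49 and 2.83 for KO CDAHFD. The WT CDAHFD libraries reached into the WT chow range. Its log2 fold change was 0.87 ± 0.298 (padj = 0.0337) for KO chow, 0.67 ± 0.268 (padj = 0.0524) for WT CDAHFD and 1.04 ± 0.267 (padj = 0.00571) for KO CDAHFD, the lowest of class II in each comparison. The call in KO chow is lost without KO chow replicate 2, at 0.45 (padj = 0.381), without WT chow replicate 1, at 0.76 (padj = 0.0659), or without WT chow replicate 4, at 0.79 (padj = 0.0741). In WT CDAHFD it was called without WT chow replicate 2, at 0.88 (padj = 0.0224), without WT CDAHFD replicate 1, at 0.82 (padj = 0.0418), or without KO chow replicate 1 or 2, at 0.69 (padj = 0.0383) and 0.67 (padj = 0.0418). H2-Oa, the α chain, is covered by 187 counts in all, and stood at 0.135 ± 0.0335 CPM for WT chow, 0.435 ± 0.307 for KO chow, 0.603 ± 0.0434 for WT CDAHFD and 0.420 ± 0.0921 for KO CDAHFD. It rose by 1.64 ± 0.483 (padj = 0.0173), 2.11 ± 0.424 (padj = 0.00115) and 1.60 ± 0.441 (padj = 0.00851), and the first of these is lost without KO chow replicate 1, at 0.68 (padj = 0.448).

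The class II machinery followed the chains. Ciita, the master regulator of class II transcription, stood at 1.79, 2.23, 1.97 and 0.826 CPM for WT chow, 7.91 and 8.88 for KO chow, 8.69, 7.15 and 9.92 for WT CDAHFD and 8.34, 7.33 and 9.66 for KO CDAHFD. All 8 libraries outside WT chow lay above the highest WT chow library. Its log2 fold changes were 2.28 ± 0.268 (padj = 2.98e-05), 2.31 ± 0.248 (padj = 7.58e-06) and 2.29 ± 0.249 (padj = 7.74e-06). Exons of Ciita overlap those of Dexi on the opposite strand by 329 bases, and Dexi held more counts than Ciita. Cd74, the invariant chain, was at 71.9, 101, 138 and 57.7 CPM for WT chow, 424 and 290.1 for KO chow, 354, 229.9 and 376 for WT CDAHFD and 341, 333 and 341 for KO CDAHFD. It rose by 1.95 ± 0.286 (padj = 0.000168), 1.79 ± 0.262 (padj = 0.000102) and 1.88 ± 0.263 (padj = 6.67e-05) without overlap with WT chow, and the CPM of Cd74 per CPM of H2-Ab1 stayed between 2.67 and 3.26 in the 12 libraries. Ifi30, the lysosomal thiol reductase GILT, which opens disulphide bonds of antigens, stood at 20.0, 21.6, 20.7 and 14.4 CPM for WT chow, 51.7 and 58.6 for KO chow, 61.5, 52.6 and 54.8 for WT CDAHFD and 55.5, 58.6 and 43.9 for KO CDAHFD. With changes of 1.52 ± 0.158 (padj = 1.07e-05), 1.55 ± 0.144 (padj = 2.18e-06) and 1.46 ± 0.144 (padj = 3.49e-06), it had the smallest adjusted p of class II in each of the 3 comparisons.

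**Figure D3:**
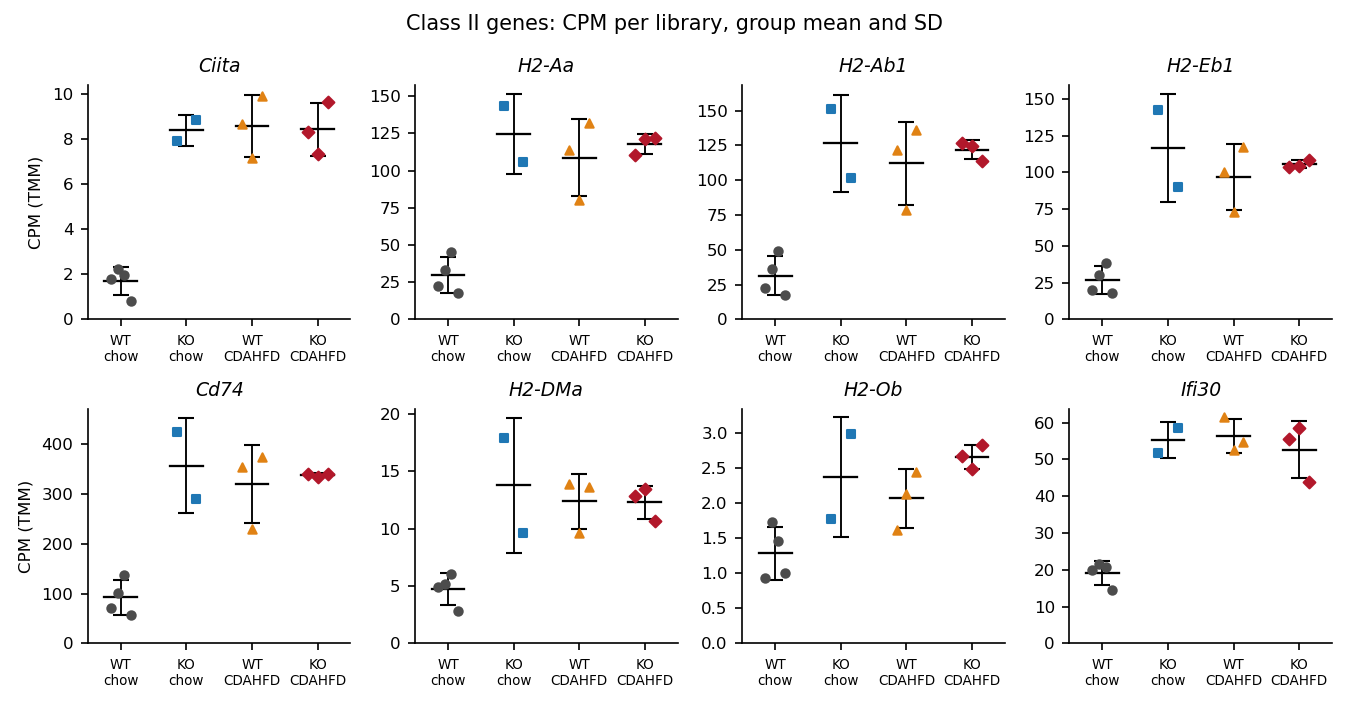
CPM per library (y axis, linear, from 0) of Ciita, H2-Aa, H2-Ab1, H2-Eb1, Cd74, H2-DMa, H2-Ob and Ifi30 in the 4 groups (x axis). Points are libraries, the bar is the group mean and the whiskers are 1 SD; the WT chow libraries are lowest for each gene but H2-Ob, where WT CDAHFD reaches into the WT chow range.

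Class I did not change as a block, and B2m and H2-K1, among its most abundant genes, were not called. H2-K1, a classical heavy chain, stood at 1742, 1470.4, 1533 and 1331 CPM for WT chow, 1581 and 983 for KO chow, 1609.5, 1508 and 1655 for WT CDAHFD and 1322, 1387 and 1067 for KO CDAHFD. Each of the 3 other groups overlapped WT chow. Its log2 fold change was -0.24 ± 0.185 (padj = 0.322), 0.067 ± 0.162 (padj = 0.755) and -0.27 ± 0.163 (padj = 0.181), though without KO chow replicate 1 it was called lower in KO chow, at -0.61 (padj = 0.0349). With library size scaling H2-K1 was called higher in WT CDAHFD, at 0.62 (padj = 0.0055). B2m, the β2-microglobulin that every class I molecule needs, was at 2043, 2038, 1845 and 1828 CPM for WT chow, 2069 and 1432 for KO chow, 1882, 1876 and 1863 for WT CDAHFD and 1563, 1899 and 1359 for KO CDAHFD. Its changes were -0.15 ± 0.166 (padj = 0.516), -0.049 ± 0.145 (padj = 0.799) and -0.27 ± 0.146 (padj = 0.139), and without KO CDAHFD replicate 2 the last was called lower, at -0.41 (padj = 0.0444). H2-D1, the other classical heavy chain, stood at 784, 629.9, 659 and 524 CPM for WT chow, 962 and 687 for KO chow, 1219, 1132 and 1221 for WT CDAHFD and 1032, 1005 and 783 for KO CDAHFD. WT CDAHFD lay wholly above WT chow, and 1 KO CDAHFD library lay at the top of the WT chow range. H2-D1 was called higher in WT CDAHFD, at 0.87 ± 0.158 (padj = 0.000534), and in KO CDAHFD, at 0.53 ± 0.158 (padj = 0.0125), and not in KO chow, at 0.35 ± 0.178 (padj = 0.145). The call in KO CDAHFD is lost without KO CDAHFD replicate 1, at 0.46 (padj = 0.057), and that in KO chow is gained without WT chow replicate 1, at 0.46 (padj = 0.04). The CPM of H2-D1 per CPM of H2-K1, formed within a library, was 0.394 to 0.450 for WT chow, 0.609 to 0.699 for KO chow, 0.738 to 0.757 for WT CDAHFD and 0.724 to 0.781 for KO CDAHFD, so the balance of the classical heavy chains shifted with no overlap with WT chow.

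The nonclassical H2-Q, H2-M and H2-T genes held the largest rises of class I and, in H2-Q10, the largest fall in the CDAHFD groups. In KO chow the largest fall was that of Erap1, given with the peptide supply genes. H2-Q10, a soluble class I molecule secreted by hepatocytes, stood at 2888, 3029.8, 2986 and 2823 CPM for WT chow, 2299.9 and 2046 for KO chow, 1771, 1636 and 1814 for WT CDAHFD and 1602, 1734 and 1329.5 for KO CDAHFD. All WT chow libraries lay above all others. It fell by 0.43 ± 0.133 for KO chow (padj = 0.0212), by 0.75 ± 0.117 for WT CDAHFD (padj = 0.000171) and by 0.91 ± 0.118 for KO CDAHFD (padj = 3.32e-05) on the log2 scale. The call in KO chow is lost without KO chow replicate 2, at -0.35 (padj = 0.159), with no filter on low counts, at -0.39 (padj = 0.0513), with the replicate block, at -0.47 (padj = 0.0532), with the compared groups alone, at -0.41 (padj = 0.0642), or with library size scaling, at -0.028 (padj = 0.854). Library size scaling also ends the call in WT CDAHFD, at -0.19 (padj = 0.103), and leaves that in KO CDAHFD. Its transcripts share 18.4% of their 50-base words with other H2 genes. H2-Q1 was at 1.94, 1.86, 4.84 and 2.80 CPM for WT chow, 56.6 and 53.8 for KO chow, 53.7, 56.0 and 58.0 for WT CDAHFD and 52.1, 46.5 and 56.8 for KO CDAHFD. The 8 libraries outside WT chow all lay above the highest WT chow library. Its log2 fold changes of 4.27 ± 0.267 (padj = 2.33e-07), 4.28 ± 0.255 (padj = 6.66e-08) and 4.17 ± 0.255 (padj = 7.69e-08) are 19.2-, 19.5- and 18.0-fold. H2-M2 stood at 0.194, 0.157, 0.3001 and 0.138 CPM for WT chow, 2.77 and 3.57 for KO chow, 6.39, 3.81 and 3.98 for WT CDAHFD and 4.39, 3.93 and 5.42 for KO CDAHFD. It rose by 3.96 ± 0.327 (padj = 1.82e-06), 4.54 ± 0.305 (padj = 1.58e-07) and 4.49 ± 0.305 (padj = 1.63e-07), and shares 0.58% of its 50-base words with other H2 genes, against 14.96% for H2-Q1 and 15.43% for H2-Q2. H2-Q2, at 0.442 ± 0.284 CPM for WT chow, 1.19 ± 0.549 for KO chow, 2.25 ± 0.0980 for WT CDAHFD and 2.64 ± 0.525 for KO CDAHFD, rose by 1.42 ± 0.428 (padj = 0.0192), 2.34 ± 0.377 (padj = 0.000218) and 2.57 ± 0.377 (padj = 9.6e-05), and the call in KO chow is lost without KO chow replicate 1, at 0.87 (padj = 0.263).

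**Figure D4:**
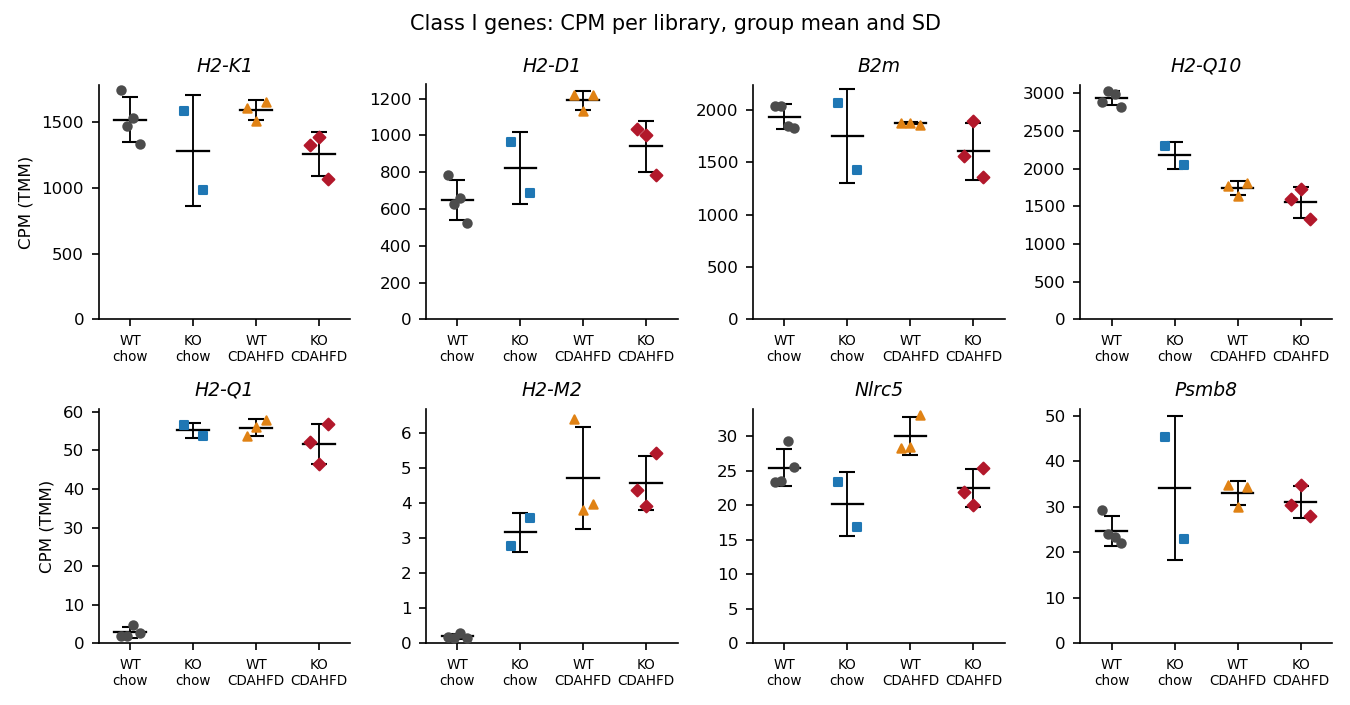
CPM per library (y axis, linear, from 0) of H2-K1, H2-D1, B2m, H2-Q10, H2-Q1, H2-M2, Nlrc5 and Psmb8 in the 4 groups (x axis). Points are libraries, the bar is the group mean and the whiskers are 1 SD; H2-Q1 lies between 46.5 and 58.0 CPM outside WT chow and at no more than 4.84 within it, H2-Q10 is highest in WT chow, and H2-K1 and B2m overlap across groups.

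H2-M3, which presents N-formylated peptides, was a small and even case: it stood at 4.46 ± 0.774 CPM for WT chow, 7.59 ± 0.577 for KO chow, 9.16 ± 0.591 for WT CDAHFD and 9.08 ± 0.179 for KO CDAHFD. Its rises were 0.76 ± 0.164 (padj = 0.00274), 1.03 ± 0.146 (padj = 7.67e-05) and 1.02 ± 0.147 (padj = 8.1e-05). H2-Q4 rose by 0.80 ± 0.209 (padj = 0.00891), 0.99 ± 0.188 (padj = 0.000798) and 0.94 ± 0.188 (padj = 0.00101), with levels of 42.9 ± 11.5 CPM for WT chow, 74.7 ± 20.8 for KO chow, 85.0 ± 1.83 for WT CDAHFD and 82.6 ± 5.16 for KO CDAHFD, and without KO chow replicate 1 the first was 0.50 (padj = 0.177). Its close relatives H2-Q6, at 0.14 ± 0.346, 0.57 ± 0.302 and 0.15 ± 0.306, and H2-Q7, at -0.43 ± 0.390, 0.27 ± 0.335 and -0.58 ± 0.342, were not called. With the clock gene score, H2-Q7 was called lower in KO chow, at -0.65 (padj = 0.041), and in KO CDAHFD, at -0.55 (padj = 0.0339), and with the replicate block in KO CDAHFD, at -0.78 (padj = 0.0405). Without WT chow replicate 1, H2-Q6 was called higher in WT CDAHFD, at 1.01 (padj = 0.00176), and in KO CDAHFD, at 0.60 (padj = 0.031). H2-Q6 and H2-Q7 share 27.01% and 25.09% of their 50-base words with other H2 genes, so the split of reads among these rows is uncertain. With the counts of H2-Q4, H2-Q6 and H2-Q7 summed, the log2 fold change was 0.40 ± 0.237 for KO chow (padj = 0.201), 0.73 ± 0.211 for WT CDAHFD (padj = 0.0115) and 0.48 ± 0.211 for KO CDAHFD (padj = 0.0723). H2-T23, which encodes Qa-1, the ligand of NKG2A, stood at 324 ± 41.5 CPM for WT chow and was not called, at 0.046 ± 0.161 (padj = 0.843), 0.16 ± 0.142 (padj = 0.366) and -0.0091 ± 0.142 (padj = 0.964). H2-T22, a ligand of γδ T cell receptors, was at 113 ± 10.6 CPM for WT chow, 143 ± 38.5 for KO chow, 178 ± 10.6 for WT CDAHFD and 151 ± 18.0 for KO CDAHFD and rose by 0.65 ± 0.136 (padj = 0.00152) for WT CDAHFD and 0.42 ± 0.137 (padj = 0.0218) for KO CDAHFD, against 0.33 ± 0.154 (padj = 0.108) for KO chow. It shares 34.42% of its words with other H2 genes and 31.25% with H2-T10. Without KO CDAHFD replicate 2 the call in KO CDAHFD is lost, at 0.32 (padj = 0.0995), and without KO chow replicate 2 it is gained in KO chow, at 0.59 (padj = 0.0159). H2-T24, at 4.96 ± 1.24 CPM for WT chow, 6.77 ± 0.540 for KO chow, 8.25 ± 1.86 for WT CDAHFD and 7.25 ± 0.727 for KO CDAHFD, rose by 0.73 ± 0.210 (padj = 0.0112) for WT CDAHFD and 0.54 ± 0.211 (padj = 0.0455) for KO CDAHFD. Without WT CDAHFD replicate 2 the first was 0.55 (padj = 0.0711), and the second had an adjusted p between 0.0505 and 0.122 without WT chow replicate 2, 3 or 4, WT CDAHFD replicate 3, KO chow replicate 2 or any 1 of the KO CDAHFD libraries.

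Genes that supply class I with peptide were mostly not called. Tap1, a chain of the TAP transporter, stood at 48.7, 47.4, 38.2 and 26.1 CPM for WT chow, 78.0 and 35.1 for KO chow, 43.8, 44.2 and 52.7 for WT CDAHFD and 40.6, 43.3 and 35.7 for KO CDAHFD, with changes of 0.49 ± 0.277 (padj = 0.18), 0.22 ± 0.247 (padj = 0.478) and -0.010 ± 0.249 (padj = 0.977). KO chow replicate 1 was the highest library and replicate 2 lay within the WT chow range. The same held for the immunoproteasome subunits Psmb8 and Psmb9, which replace constitutive subunits under interferon. Psmb8 was at 29.3, 24.0, 23.4 and 21.9 CPM for WT chow, 45.3 and 22.9 for KO chow, 34.7, 30.0 and 34.4 for WT CDAHFD and 30.5, 34.8 and 27.9 for KO CDAHFD. Psmb9 was at 27.0, 22.9, 19.9 and 15.5 CPM for WT chow, 48.1 and 19.0 for KO chow, 28.3, 24.7 and 28.5 for WT CDAHFD and 24.5, 29.0 and 22.3 for KO CDAHFD, with the same library on top. Their changes in KO chow were 0.47 ± 0.213 (padj = 0.101) and 0.65 ± 0.286 (padj = 0.089), in WT CDAHFD 0.42 ± 0.190 (padj = 0.0805) and 0.35 ± 0.257 (padj = 0.278), and in KO CDAHFD 0.33 ± 0.190 (padj = 0.161) and 0.24 ± 0.258 (padj = 0.451). Without KO chow replicate 2, Tap1, Psmb8 and Psmb9 were called higher in KO chow, at 0.96 (padj = 0.0138), 0.88 (padj = 0.00247) and 1.18 (padj = 0.00235). Psmb9 for KO chow was called without WT chow replicate 1 as well, at 0.80 (padj = 0.0478). Psmb8 was called in WT CDAHFD without WT chow replicate 1, at 0.54 (padj = 0.0378), and without KO chow replicate 1 or 2, at 0.45 (padj = 0.00947) and 0.43 (padj = 0.0131), and in KO CDAHFD without KO chow replicate 1 or 2, at 0.36 (padj = 0.0259) and 0.33 (padj = 0.0414). Psmb9 and Tap1 overlap on opposite strands by 212 bases, and their counts cannot be fully separated.

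Psmb10, the remaining immunoproteasome subunit, stood at 31.7 ± 4.80 CPM for WT chow, 51.2 ± 19.7 for KO chow, 41.0 ± 3.23 for WT CDAHFD and 43.5 ± 2.701 for KO CDAHFD and was called higher in KO chow, at 0.69 ± 0.189 (padj = 0.0118), and KO CDAHFD, at 0.45 ± 0.170 (padj = 0.0392), against 0.37 ± 0.170 (padj = 0.0867) for WT CDAHFD. These calls change with single libraries: without KO chow replicate 1 the first was 0.25 (padj = 0.346), the second had an adjusted p of 0.0508 to 0.112 without WT chow replicate 2 or 4, WT CDAHFD replicate 1 or any 1 of the KO CDAHFD libraries, and the third was called without WT chow replicate 1, at 0.48 (padj = 0.0349), or without KO chow replicate 1 or 2, at 0.39 (padj = 0.0179) and 0.37 (padj = 0.0244). Set against the constitutive subunit that each replaces, within a library, Psmb10 per Psmb7 was 0.248 to 0.381 for WT chow, 0.489 to 0.735 for KO chow, 0.613 to 0.641 for WT CDAHFD and 0.623 to 0.749 for KO CDAHFD, with no overlap with WT chow. Psmb7 itself was called lower in each comparison with WT chow, so this ratio mixes its fall with the change of Psmb10. Psmb8 per Psmb5 was 0.262 to 0.332, 0.318 to 0.485, 0.466 to 0.471 and 0.419 to 0.485 in the same order, where KO chow overlapped WT chow. Psmb9 per Psmb6 was 0.123 to 0.234, 0.207 to 0.407, 0.305 to 0.322 and 0.256 to 0.291, and here too KO chow overlapped WT chow. Tapbp, the chaperone tapasin, was at 99.9, 74.0, 74.6 and 74.2 CPM for WT chow, 163 and 108 for KO chow, 125, 124 and 128 for WT CDAHFD and 122, 132 and 122 for KO CDAHFD. It rose by 0.75 ± 0.159 (padj = 0.00262), 0.64 ± 0.143 (padj = 0.00246) and 0.64 ± 0.143 (padj = 0.00239), the first lost without KO chow replicate 1, at 0.44 (padj = 0.0774). Its exons overlap those of Zbtb22 on the same strand by 149 bases, and Zbtb22 held 19.4% as many counts. Its relative Tapbpl, an editor of the peptides on class I, stood at 28.9 ± 5.75 CPM for WT chow, 38.1 ± 7.18 for KO chow, 36.7 ± 2.16 for WT CDAHFD and 38.0 ± 4.55 for KO CDAHFD. It reached a call in KO CDAHFD alone, at 0.40 ± 0.152 (padj = 0.0435), beside 0.40 ± 0.171 (padj = 0.084) for KO chow and 0.35 ± 0.152 (padj = 0.074) for WT CDAHFD. That call had an adjusted p of 0.0529 to 0.151 without WT chow replicate 2 or 4, any 1 of the WT CDAHFD libraries or KO CDAHFD replicate 1 or 2. Without WT chow replicate 1, Tapbpl was called in KO chow, at 0.55 (padj = 0.0091), and in WT CDAHFD, at 0.51 (padj = 0.00632).

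Nlrc5, the class I counterpart of Ciita, stood at 23.4, 23.5, 29.2 and 25.5 CPM for WT chow, 23.4 and 16.9 for KO chow, 28.3, 28.4 and 33.1 for WT CDAHFD and 22.0, 20.0 and 25.4 for KO CDAHFD. Its log2 fold changes were -0.34 ± 0.158 (padj = 0.11), 0.24 ± 0.136 (padj = 0.164) and -0.18 ± 0.137 (padj = 0.301), and without KO chow replicate 1 it was called lower in KO chow, at -0.57 (padj = 0.0442). In WT CDAHFD it was called higher with the compared groups alone, at 0.29 (padj = 0.0493), or with library size scaling, at 0.80 (padj = 0.000525). Library size scaling also called it higher in KO CDAHFD, at 0.44 (padj = 0.0205). Ciita thus changed by over 2 on the log2 scale where Nlrc5 was not called in the fit of all 12 libraries with TMM. Tap2, the other TAP chain, was not called, at 0.37 ± 0.189 (padj = 0.145), 0.40 ± 0.168 (padj = 0.063) and 0.36 ± 0.168 (padj = 0.0869). Tap2 was near the threshold: it was called higher in WT CDAHFD and in KO CDAHFD without WT chow replicate 1, at 0.54 (padj = 0.0167) and 0.51 (padj = 0.021), without KO chow replicate 1, at 0.42 (padj = 0.0133) and 0.40 (padj = 0.0185), or without KO chow replicate 2, at 0.40 (padj = 0.017) and 0.36 (padj = 0.0279). In KO chow it was called without WT chow replicate 1, at 0.49 (padj = 0.0462), or without KO chow replicate 2, at 0.71 (padj = 0.00906). Erap1, the aminopeptidase that trims peptides for class I, was at 123 ± 13.4 CPM for WT chow, 88.6 ± 7.30 for KO chow, 98.5 ± 2.20 for WT CDAHFD and 82.3 ± 11.5 for KO CDAHFD. It was called lower, at -0.48 ± 0.134 (padj = 0.0132), -0.32 ± 0.116 (padj = 0.0339) and -0.58 ± 0.117 (padj = 0.00109), and overlaps Cast, which held 83.8% as many counts, by 834 bases on the opposite strand. The call in KO chow is lost with the replicate block, at -0.35 (padj = 0.0712). Library size scaling also ends it, at -0.067 (padj = 0.714). That in WT CDAHFD is lost in DESeq2, at -0.28 (padj = 0.0551), or with no filter on low counts, at -0.27 (padj = 0.143). The replicate block also ends it, at -0.25 (padj = 0.104). Library size scaling reversed the sign in WT CDAHFD, at 0.24 (padj = 0.0978), and in KO CDAHFD, at 0.041 (padj = 0.781). Without KO chow replicate 1 the change in KO chow was -0.38 (padj = 0.151), and that in WT CDAHFD had an adjusted p of 0.0564 to 0.125 without WT chow replicate 3 or 4, any 1 of the WT CDAHFD libraries or KO chow replicate 1.

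In mice on CDAHFD, no member passed the threshold between KO and WT. Between KO CDAHFD and WT CDAHFD, edgeR called 0 of 12 class II and 0 of 23 class I genes (0.357% of all genes tested were called, 0.0864% higher and 0.271% lower), and DESeq2 called 0 and 0. At an unadjusted p under 0.05 there were 0 class II genes and 2 class I genes, H2-Q7, at -0.86 ± 0.362 with an interval of 2 standard errors from -1.58 to -0.13, and Nlrc5, at -0.42 ± 0.146 (-0.71 to -0.12). By range, 7 of the 23 class I genes had every KO CDAHFD library below every WT CDAHFD library and 0 above, beside 11.3% of all genes below and 9.47% above, and class II had 1 below and 2 above. The class I score was 5.75 to 5.88 in KO CDAHFD and 5.98 to 6.04 in WT CDAHFD, without overlap. The log2 difference of H2-Aa was 0.12 ± 0.282, with an interval of 2 standard errors from -0.45 to 0.68, that of Ciita was -0.023 ± 0.247 (-0.52 to 0.47), that of H2-K1 was -0.34 ± 0.173 (-0.68 to 0.0086) and that of H2-Q10 was -0.16 ± 0.123 (-0.41 to 0.085). With 3 libraries against 3, each interval gives the differences compatible with the data, with standard errors from the fit of all 12 libraries. Those of Erap1, at -0.26 ± 0.124 (-0.51 to -0.013), and H2-D1, at -0.34 ± 0.170 (-0.68 to -0.0005), also lay below 0, without an unadjusted p under 0.05. Between KO CDAHFD and KO chow, 0 of 12 class II and 0 of 23 class I genes were called in edgeR (6.19% of all genes were called, 3.76% higher and 2.44% lower), with 0 and 2 at an unadjusted p under 0.05 and 0 and 2 called in DESeq2. Those 2 were H2-Q10, at -0.48 ± 0.137 (padj = 0.0568), and H2-Q2, at 1.16 ± 0.420 (padj = 0.125), in edgeR. H2-Q10 was called in edgeR without WT chow replicate 1, at -0.47 (padj = 0.0402), or without KO CDAHFD replicate 2, at -0.57 (padj = 0.0452), and H2-Q2 without WT chow replicate 1, at 1.18 (padj = 0.0456).

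The effect of CDAHFD on class II differed between the genotypes. The interaction, which is the log2 change from chow to CDAHFD in KO minus that in WT, was called lower in 10 of 12 class II genes and 4 of 23 class I genes (14.5% of all genes were called lower and 8.63% higher), with medians of -1.92 and -0.57. H2-DMb2, at -0.995 ± 0.430 (padj = 0.119), and H2-Ob, at -0.51 ± 0.408 (padj = 0.416), were the class II genes not called. In class I the interaction was called for H2-Q1, at -4.38 ± 0.362 (padj = 6.83e-06), H2-M2, at -4.01 ± 0.417 (padj = 3.21e-05), H2-M3, at -0.77 ± 0.225 (padj = 0.0256), and Tapbp, at -0.75 ± 0.223 (padj = 0.0284). For Ciita it was -2.30 ± 0.368 (padj = 0.000655): the CPM went from 1.70 ± 0.614 to 8.58 ± 1.39 in WT and from 8.39 ± 0.681 to 8.44 ± 1.17 in KO. KO chow enters this test with 2 libraries, and without KO chow replicate 1, 9 members were called instead of 14.

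The rest of the pathway was read from lists of genes grouped by function. Beside the counts of these lists and of the cell type markers stand 22.0%, 26.1% and 26.9% of all genes called higher and 17.0%, 25.0% and 25.4% called lower, with the comparisons in the order used so far. The lysosomal proteases that cut Cd74 and antigen (Ctss, Ctsl, Ctsb, Ctsd and Lgmn) were called higher in 5 of 5 in each comparison with WT chow, with medians of 1.20, 1.63 and 1.52. Ctss, the protease of the last step of invariant chain removal, went from 43.8 ± 10.9 CPM for WT chow to 205 ± 54.0 for KO chow, 490.4 ± 60.0 for WT CDAHFD and 450.0 ± 33.4 for KO CDAHFD. The costimulatory list held Cd80, Cd86, Cd40 and Icosl, and also Cd274 and Pdcd1lg2, which are ligands of an inhibitory receptor. All but Pdcd1lg2 were tested, so its counts do not stand for costimulation alone. Of this list, 5 of 5 tested genes rose in KO chow and in WT CDAHFD and 4 of 5 for KO CDAHFD. Cd40 rose by 2.09 ± 0.327 (padj = 0.000278), 2.19 ± 0.299 (padj = 5.9e-05) and 2.25 ± 0.301 (padj = 4.42e-05), and Cd86, a ligand of CD28, by 1.59 ± 0.260 (padj = 0.00039) and 0.73 ± 0.239 (padj = 0.0214) for KO chow and WT CDAHFD, beside 0.53 ± 0.241 (padj = 0.0835) for KO CDAHFD.

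Parts that build the class II promoter complex with Ciita went both ways. Of 7 genes, 1 was higher and 1 lower in KO chow, and 1 higher and 2 lower in WT CDAHFD and in KO CDAHFD. Nfya, an NF-Y subunit, rose by 0.39 ± 0.127 (padj = 0.0286), 0.98 ± 0.112 (padj = 1.23e-05) and 0.92 ± 0.112 (padj = 1.93e-05), while Nfyb, its partner, was called lower, at -0.55 ± 0.115 (padj = 0.00211), -0.67 ± 0.100 (padj = 0.00012) and -0.65 ± 0.100 (padj = 0.000144). Rfx5 was not called, at 0.070 ± 0.229 (padj = 0.833), 0.065 ± 0.202 (padj = 0.81) and 0.023 ± 0.203 (padj = 0.937). Among the 9 tested genes of interferon gamma signalling, 6 were higher and 1 lower in KO chow, and 4 higher and 1 lower in each CDAHFD group. Irf8, a factor of myeloid cells, rose by 1.75 ± 0.176 (padj = 8.53e-06), 1.997 ± 0.162 (padj = 6.82e-07) and 1.91 ± 0.162 (padj = 9.17e-07), and the receptor chain Ifngr1 by 1.27 ± 0.112 (padj = 3.14e-06), 1.47 ± 0.102 (padj = 1.98e-07) and 1.32 ± 0.102 (padj = 4.38e-07). The constitutive proteasome and PA28 list had 0 of 7 higher in edgeR in each comparison, and 1, 4 and 3 lower, led by Psmb7 at -0.37 ± 0.106 (padj = 0.0156), -0.71 ± 0.0940 (padj = 4.61e-05) and -0.75 ± 0.0942 (padj = 2.7e-05). Of the 5 chaperones of class I loading, 1 was called in the 3 comparisons, Canx, lower in KO CDAHFD at -0.37 ± 0.136 (padj = 0.0379). Of 7 MHC-like genes outside the H2 region, 1, 2 and 2 were higher and 3, 3 and 3 lower: Procr, the endothelial protein C receptor, rose by 1.61 ± 0.186 (padj = 2.63e-05), 2.63 ± 0.168 (padj = 1.16e-07) and 2.60 ± 0.168 (padj = 1.14e-07), and Fcgrt, the neonatal Fc receptor, was called lower, at -0.69 ± 0.149 (padj = 0.00286), -0.69 ± 0.129 (padj = 0.00071) and -0.84 ± 0.130 (padj = 0.000143).

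Of the cell types that can carry class II, leukocyte, dendritic and macrophage lists had 4 or more genes called higher in each comparison with WT chow, while B cell and sinusoidal endothelial lists had 0 or 1 (edgeR). In bulk tissue, more cells of a type and more RNA per cell cannot be told apart. The pan-leukocyte list (Ptprc, Cd52, Coro1a and Laptm5) was called higher in 4 of 4 in each comparison with WT chow, and its summed CPM was 35.8 to 65.4 for WT chow, 179 to 182 for KO chow, 258 to 309 for WT CDAHFD and 248 to 273 for KO CDAHFD. Of 8 dendritic cell markers, 7, 6 and 7 were higher, and their sum was 10.4 to 13.8, 34.9 to 42.9, 74.9 to 85.1 and 77.9 to 104 CPM in the same order of groups. Itgax, the CD11c chain of dendritic cells and some macrophages, led the list, at 4.21 ± 0.262 (padj = 2.23e-07), 5.96 ± 0.256 (padj = 8.31e-09) and 6.05 ± 0.257 (padj = 6.77e-09). Most of the rise of the sum was Itgax: without it, a choice made after seeing the data, the sum was 9.999 to 12.6, 19.0 to 23.3, 20.8 to 22.9 and 22.9 to 27.2 CPM. The summed CPM of the class II chains was 58.8 to 146, 325 to 478, 257 to 422 and 375 to 386. Of 8 macrophage and Kupffer cell markers, 6, 4 and 4 were higher and 0, 1 and 1 lower (edgeR), with a sum of 297 to 530.2, 887 to 1179.9, 714 to 887 and 511 to 875 CPM. Cd68 rose by 1.998 ± 0.199 (padj = 7.8e-06), 3.29 ± 0.189 (padj = 5.16e-08) and 3.14 ± 0.188 (padj = 6.98e-08), and Timd4, a marker of resident Kupffer cells, was called lower in WT CDAHFD, at -4.57 ± 0.528 (padj = 1.42e-05), and in KO CDAHFD, at -2.75 ± 0.463 (padj = 0.000295). Monocyte and neutrophil markers were higher in 5 of 5 tested in each comparison, with a sum of 4.31 to 19.9, 41.4 to 60.3, 57.4 to 72.4 and 59.1 to 65.8 CPM, and Ly6g, the defining gene of neutrophils, had 0 counts in 7 of 12 libraries and no more than 3 in any.

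B cell markers, in contrast, gave 0 calls of 6 in each comparison in edgeR and in DESeq2, with 1 (Cd79b), 0 and 0 at an unadjusted p under 0.05, and their sum was 3.35 to 6.47 CPM for WT chow, 4.22 to 9.14 for KO chow, 3.86 to 4.999 for WT CDAHFD and 5.51 to 6.68 for KO CDAHFD. None of the 6 was at 0 in any library. T and NK cell markers were higher in 5, 4 and 5 of 7, led by Cd8a, a chain of the coreceptor for class I, at 2.57 ± 0.438 (padj = 0.000534), 3.10 ± 0.396 (padj = 3.37e-05) and 2.85 ± 0.401 (padj = 6.99e-05). Cd4, the coreceptor for class II, was called lower, at -1.28 ± 0.317 (padj = 0.0065), -1.36 ± 0.272 (padj = 0.00112) and -1.44 ± 0.276 (padj = 0.00078). The 7 markers summed to 5.05 to 7.96 CPM for WT chow and 6.35 to 9.84, 7.58 to 7.94 and 6.68 to 8.40 in the other groups. Cd4 held the most counts of the 7 in every WT chow library, at 98, 176, 97 and 55. The sum thus mixes its fall with the rises of other genes. Sinusoidal endothelial markers were called higher in 1, 0 and 0 of 6 and lower in 0, 3 and 3. Hepatocyte markers, beside which the fall of H2-Q10 stands, were lower in 6, 8 and 8 of 8, with medians of -0.71, -0.97 and -0.97. Cholangiocyte markers rose in 5 of 5 in each comparison and stellate cell markers in 3, 3 and 4 of 6, with 0, 1 and 1 lower (edgeR). The summed CPM of class II chains per CPM of Ptprc was 4.06 to 10.2 for WT chow, 7.03 to 10.2 for KO chow, 3.69 to 7.18 for WT CDAHFD and 6.22 to 8.34 for KO CDAHFD, and the groups overlapped. Ratios of H2-Ab1 to single markers depended on the marker. To Csf1r (macrophages), they were 0.342 to 0.628, 0.703 to 1.42, 0.428 to 0.805 and 0.718 to 0.83 in the same order. To Adgre1 (macrophages), they were 0.676 to 1.68, 1.33 to 2.85, 1.04 to 2.28 and 2.11 to 2.86. To Ms4a1 (B cells), they were 38.7 to 77.2, 67.7 to 242, 176 to 311 and 123 to 222. To Itgax, they were 18.7 to 48.25 for WT chow and at most 9.497, 2.529 and 2.297 in the other groups. The part of these cell types in the class II result was not tested.

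**Figure D5:**
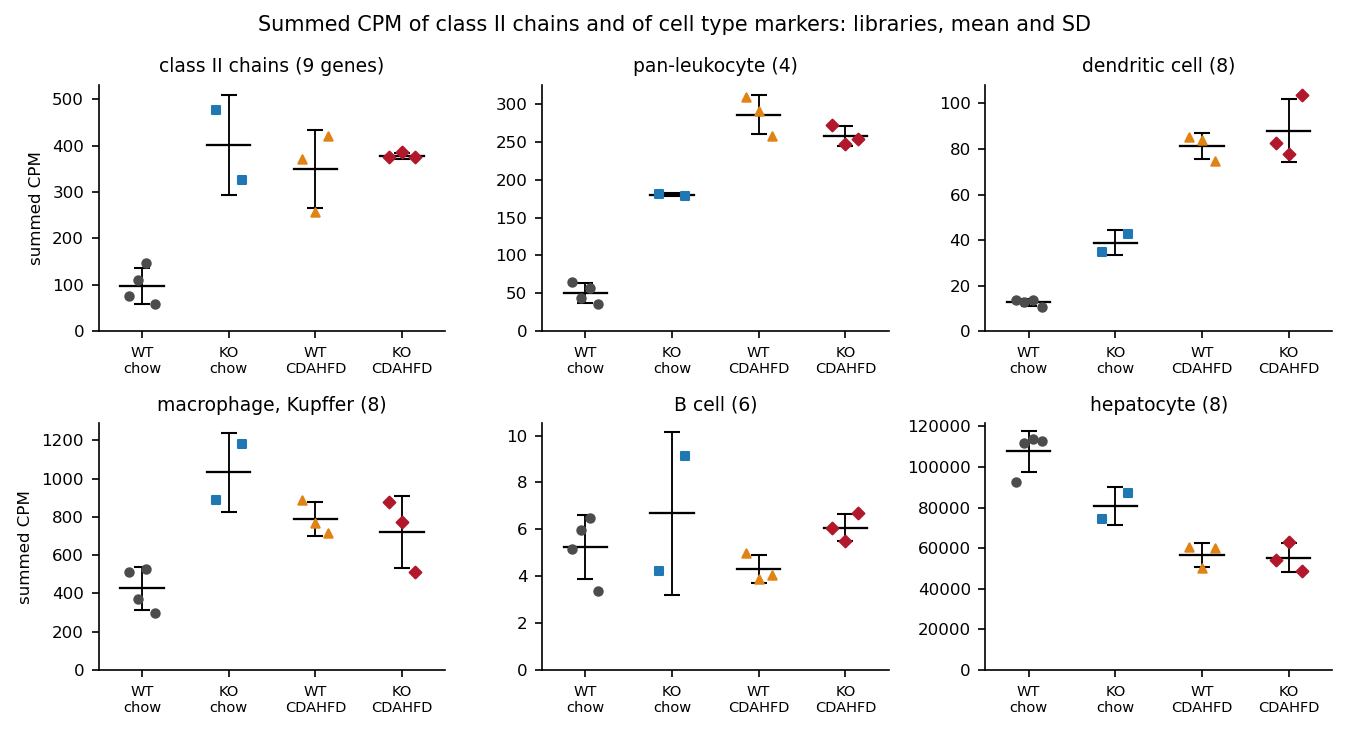
Summed CPM (y axis, linear, from 0) of the 9 class II chains and of 5 cell type marker lists in the 4 groups (x axis), with points for libraries, a bar for the mean and whiskers for 1 SD. Class II chains, pan-leukocyte and dendritic cell markers are lowest in WT chow, B cell markers overlap across groups, and hepatocyte markers are highest in WT chow.

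The number of calls moved more in class I than in class II with the scaling of libraries. With library size alone, the median change of all genes on the log2 scale shifted to 0.40 for KO chow, 0.51 for WT CDAHFD and 0.57 for KO CDAHFD, and of the genes called 86.0%, 88.6% and 89.9% were higher, against 56.4%, 51.0% and 51.4% with TMM. Class I then had 16 genes higher and 0 lower in KO chow, 20 and 0 for WT CDAHFD and 16 and 1 for KO CDAHFD, and class II had 12 and 0 in each (edgeR), where H2-Ob in WT CDAHFD was the call gained, at 1.23 (padj = 0.00206). Relative to the shift of all genes, the class I medians were 0.39, 0.44 and 0.39 and the class II medians 1.98, 1.89 and 1.95. H2-Q10 relative to the shift was -0.43, -0.71 and -0.88, and B2m was -0.15, -0.0030 and -0.24.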

How the data were processed

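Poly-A selected, non-directional RNA libraries of mouse liver, 12 in all, were analysed, grouped by the labels. The authors checked reads with FastQC 0.11.5, aligned them to GRCm38 with STAR 2.7.3a and deposited read counts per Ensembl gene, without normalization; the counting program and annotation are not given in the sources used here. Symbols and positions come from GENCODE M21, which holds 94.08% of the identifiers. Total counts were 29906785 to 43551003 per library (median 36989922).

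Counts were analysed with edgeR 4.0.16 in R 4.3.3: filterByExpr (17358 genes), TMM, and a quasi-likelihood fit (glmQLFit with the earlier defaults, glmQLFTest) of 4 group means over all 12 libraries, p-values adjusted after Benjamini and Hochberg across every tested gene, and a threshold of 0.05. The standard error is the log2 fold change divided by the square root of F. DESeq2 1.42.0 served as an alternative, beside library size scaling, no filter, the compared groups alone, a replicate block, a clock gene score and leaving out each library. Log2 CPM used a prior count of 2. The fit was tested on simulated data in which few genes changed, equally up and down. That does not show how it does with changes as wide as those seen here. Promoter windows (250 bases) are RefSeq's, on GRCm38.p6. Genes with full values were fixed by a rule: main chains, regulators and peptide supply genes, and the largest and smallest change of each class. From pathway and marker lists, up to 3 called genes of the largest change were named; Cd86, Rfx5, Cd4 and Timd4 were picked after their values were seen. Members, lists and rules were chosen with earlier results of these data known.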

Additional observations from a re-analysis of the deposited data

Results flagged for a closer look

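In WT chow, Tapbp of replicate 1 stood at 99.9 CPM, apart from the other 3 libraries at 74.0, 74.6 and 74.2 CPM by Dixon's criterion for 4 samples. It was the only one of 35 members so marked in the WT chow group, the single group with 4 libraries, and chance marks about 1 gene in 20 there.

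The change from chow to CDAHFD differed between the genotypes by an interaction term in edgeR for 14 members. On the log2 scale, KO minus WT, it was -2.59 for H2-Eb2, -2.30 for Ciita, -2.15 for H2-Oa, -2.11 for H2-DMb1, -2.001 for H2-Eb1, -1.95 for H2-Aa, -1.89 for H2-Ab1, -1.87 for Cd74, -1.62 for Ifi30 and -1.54 for H2-DMa in class II. In class I it was -4.38 for H2-Q1, -4.01 for H2-M2, -0.77 for H2-M3 and -0.75 for Tapbp. WT chow was the lowest of the 4 group means for each of the 14.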

How the results depend on the processing

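Of the 180 log2 fold changes of single genes (35 members and Ppara in 5 comparisons), 71 were called, and 52 of those kept direction and call under every alternative run. Of the 109 not called, 33 passed the threshold in an alternative with the sign kept. Beyond these, B2m in WT CDAHFD and Nlrc5 and H2-T23 in KO CDAHFD, each against WT chow, passed it with the sign reversed, under library size alone. With library size alone, class I calls went from 9 to 16 for KO chow and from 11 to 20 for WT CDAHFD, B2m in WT CDAHFD became 0.51, Nlrc5 and H2-T23 for KO CDAHFD against WT chow 0.44 and 0.59, and Erap1 0.24 for WT CDAHFD and 0.041 for KO CDAHFD, since this scaling moves all genes upward. Class I calls between KO CDAHFD and KO chow were 2 in DESeq2 and 1 with the clock gene score, against 0; the cause was not tested. From log2 summed CPM, the class II minus class I difference against WT chow was 2.18, 1.91 and 2.27 for KO chow, WT CDAHFD and KO CDAHFD, against 1.27, 0.98 and 1.24, since sums follow the most abundant genes. KO chow has 2 libraries, so leaving out either leaves 1, assumed to vary like the other groups.

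When each library was left out in turn, class I calls ranged from 6 to 13 for KO chow, 9 to 16 for WT CDAHFD and 9 to 15 for KO CDAHFD against WT chow, and from 0 to 2 between KO CDAHFD and KO chow. Class II calls ranged from 11 to 12, 11 to 12 and 12 to 12. Members called in the interaction ranged from 9, without KO chow replicate 1, to 21. The score difference ranged from 1.13 to 1.40, 0.89 to 1.07 and 1.15 to 1.34 against WT chow, from 0.18 to 0.34 between KO CDAHFD and WT CDAHFD, and from -0.16 to 0.11 between KO CDAHFD and KO chow.

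Deviations of same-numbered libraries from their group means had r across genes from -0.24 to 0.27. With so few libraries in a group, such values cannot decide by themselves whether the numbers pair the mice. The column names of the counts number the libraries onward from chow to CDAHFD within a genotype. The replicate numbers of the labels restart in each group, so they give no ground for pairing. The replicate block is thus an arbitrary grouping, kept as an alternative run. With the replicate block, class I calls were 7, 10 and 11 and class II calls 11, 11 and 12 in the comparisons with WT chow, and 11 members were called in the interaction. Members with few counts, such as H2-Oa and H2-Eb2, are limited by depth.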

Other observations

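Rows named H2 that the rule left out also varied. H2-T-ps, an annotated pseudogene, stood at 0.283 ± 0.0802 CPM for WT chow (SD, n = 4), 8.49 ± 1.92 for KO chow, 9.77 ± 2.21 for WT CDAHFD and 7.83 ± 1.93 for KO CDAHFD, with log2 fold changes of 4.85 ± 0.297 (padj = 1.92e-07), 5.06 ± 0.283 (padj = 4.29e-08) and 4.74 ± 0.283 (padj = 6.95e-08) against WT chow in edgeR, larger than that of any member. It and H2-T10, at 1.03 ± 0.257 (padj = 0.00694), 1.62 ± 0.229 (padj = 7.94e-05) and 1.44 ± 0.230 (padj = 0.000197), were picked after their values were seen. H2-T23 shares 6.05% of its 50-base words with H2-T-ps, and H2-T22 31.25% with H2-T10.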
